A study of Mus musculus with 16 samples.

Results

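Subcutaneous liver tumours of mice that received cabozantinib together with an anti-PD1 antibody were compared with tumours of mice that received cabozantinib alone, to describe what the antibody added on top of the kinase inhibitor. The members were the 4 tumours whose treatment label names both agents (Combination) and the 5 tumours labelled with cabozantinib only (Cabozantinib), 9 of the 16 tumours of the series. All hosts were male C57BL/6 mice, 5 weeks old, with Hepa1-6 cells, a mouse hepatoma line, placed under the skin of the right flank in 50% Matrigel. Dosing began at a tumour volume of 200 to 300 mm3, and tumours were taken at day 14. The Cabozantinib mice were dosed by mouth each day with 30 mg/kg. The Combination mice received that dose and also the hamster antibody J43 against mouse PD1, for which the labels of the anti-PD1 arm give 10 mg/kg into the peritoneum, 5 doses 3 days apart. The other 7 tumours were 4 from mice given hamster IgG at the same dose and spacing (Placebo) and 3 from mice given J43 without cabozantinib (AntiPD1). The labels name hamster IgG for the Placebo arm only, so in the comparison of Combination with Cabozantinib the blocking of PD1 and the hamster protein cannot be told apart. The model is 1 cell line grown outside the liver, and each array holds RNA of a whole tumour.

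PD-1 is an inhibitory receptor of activated T cells. Its ligands PD-L1 and PD-L2 on tumour and myeloid cells recruit phosphatases to it that dampen signalling from the antigen receptor and CD28, and an antibody against PD-1 lifts that brake. Cabozantinib inhibits several receptor tyrosine kinases, among them VEGFR2, MET, AXL and RET, and reduces tumour vessels.

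Gene expression was measured on Affymetrix whole-genome mouse arrays, 1 per tumour, and values are on the log2 scale, so that a difference of 1 is a 2-fold change in signal. One probe set was kept for each of 17097 genes, and differences are given as Combination minus Cabozantinib with the standard error (SE) of a linear model over all 16 arrays. A gene was called when its p-value, adjusted over all 17097 genes by the Benjamini-Hochberg procedure, was under 0.05. The array medians lay between 4.92 and 5.13, and a mean signal under 4.92 is not shown to be above background. Nothing in the labels gives the origin of the tumours beyond separate titles, so p-values measure the spread between these tumours.

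The tumours differed in their signal of muscle and adipocyte genes, and tumours high in either were found in both groups. A list score, the mean over a list of each gene's log2 value minus its mean over the 16 tumours, was used to describe each tumour. The skeletal muscle score was 3.94 in Cabozantinib 4 and 5.16 in Combination 4, against -1.84 to 1.91 in the other 7 tumours. The adipocyte score was 3.28 in Cabozantinib 2, 2.50 in Combination 1 and 1.94 in Combination 2, and at most 0.74 in the remaining 6. Each of these tissues was thus high in at least 1 tumour of both groups, but not evenly. The mean adipocyte score was 1.25 in Combination and 0.05 in Cabozantinib tumours. Macrophage and Y-linked scores, given below, did not overlap between the groups, so these signals were not balanced between them. Whether host cell content differed was not tested. Cabozantinib 2 and Cabozantinib 3 share the leading number of their titles, whose meaning is not stated, and stand at opposite ends of their group for macrophage genes. Spiked labelling controls were at 8.62 to 9.40 in Cabozantinib and at 7.76 to 9.10 in Combination tumours, and the part of this in the results was not tested.

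One gene passed the threshold and rose when the antibody was added, the immunoglobulin kappa variable segment Igkv14-111 on chromosome 6, which encodes part of an antibody light chain (family 14, gene number 111 by its symbol). That is 0.00585% of the genes tested, and no gene fell (0%). Its log2 signal was 6.75, 7.11, 7.63 and 7.74 in Combination tumours 1 to 4 and 4.302, 4.49, 4.54, 4.88 and 4.53 in Cabozantinib tumours 1 to 5. Every Combination tumour was above every Cabozantinib tumour, with a gap wider than the range within either group. The difference was 2.76 ± 0.33 (SE), a 6.76-fold higher signal (adjusted p = 0.0129). The means were 7.31 ± 0.46 (SD, n = 4) in Combination and 4.55 ± 0.21 (SD, n = 5) in Cabozantinib. The Placebo mean was 4.34 ± 0.32 (SD, n = 4) and the AntiPD1 mean 4.72 ± 1.10 (SD, n = 3), so the means of all 3 other groups were below the lowest array median and the size of the ratio depends on the background there. The highest Placebo value was 4.70, in mice given hamster IgG without cabozantinib. The part of hamster protein given together with cabozantinib was not tested. The AntiPD1 tumours were at 4.60, 5.87 and 3.68, so that AntiPD1 2 was above background without cabozantinib. That tumour also had the highest AntiPD1 values of Igk-V21, at 8.16, and Jchain, at 11.51. It was the AntiPD1 tumour highest in muscle genes, with a skeletal muscle score of 4.37. Kappa variable segments resemble each other closely, so the probe set may read related segments and the identity of the segment is uncertain. The call was lost, at adjusted p between 0.0536 and 0.0760, without Cabozantinib 1, 2 or 5, without Combination 2, or without the pair Cabozantinib 2 and Combination 1, which are high in adipocyte genes. Over all 26 alternative settings the difference lay between 2.61 and 2.94.

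Far more genes were reached at looser thresholds. At an unadjusted p under 0.05, 1694 genes were higher in Combination (9.91% of those tested) and 2159 lower (12.6%), where 855 genes in both directions would be expected on average with no difference. Genes that share the host cell content of a tumour vary together, so such a count can lie far from that average. It does not show by itself that the groups differ. At an adjusted p under 0.1, a threshold added after the data were seen, 548 genes were higher (3.21%) and 613 lower (3.59%), together 6.79%. That count rests on the spread within the Placebo and AntiPD1 groups as well: in a fit on the 9 compared tumours alone, 2 genes were under 0.1, both higher, while 3152 had an unadjusted p under 0.05. Of the 110 genes chosen by the naming rule, 42 were under 0.1 with all 16 tumours and only Igkv14-111 with the 9, at an adjusted p of 0.00344. The adjusted p-values of 0.07 to 0.1 printed for other genes therefore hold for the fit on all 16 tumours; on the 9 tumours the lowest among the other named genes was 0.203. In 351 genes (2.05%) all 4 Combination tumours were above all 5 Cabozantinib tumours, and in 522 genes (3.05%) all were below. The median difference over all genes was -0.03, and 42.2% of all genes had a positive difference. These shares are the background for the gene lists that follow.

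**Figure D1:**
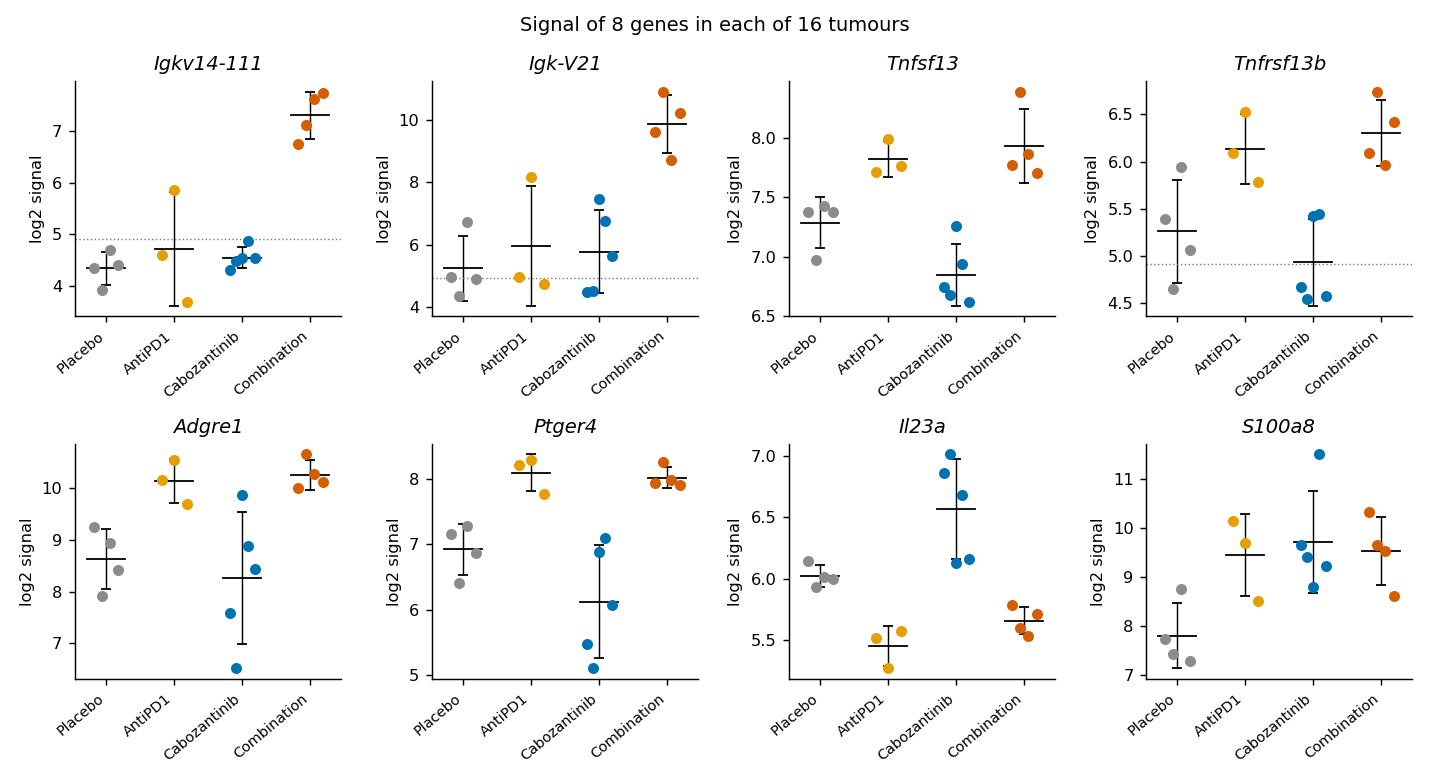
Log2 signal (vertical axis) of 8 genes in each of 16 tumours, by treatment group (horizontal axis); points are tumours, the long bar is the group mean and the whiskers are 1 SD, and the dotted line is the lowest array median, 4.92, where it falls in the range. The 4 Combination tumours sit above the 5 Cabozantinib tumours for Igkv14-111, Igk-V21, Tnfsf13, Tnfrsf13b, Adgre1 and Ptger4, below them for Il23a, and among them for S100a8.

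Genes of B cells and plasma cells held the greatest differences among the immune lists, though none of the 19 measured members passed the threshold. In 6 of the 19 all Combination tumours were above all Cabozantinib tumours (2.05% of all genes), 17 differences were positive, and the median difference was 0.69 against -0.03 over all genes, or 1.70 over members with a mean above the highest array median. Igk-V21, another kappa segment, read 9.62, 10.91, 8.72 and 10.24 in Combination tumours 1 to 4 and 4.47, 4.52, 7.46, 6.76 and 5.62 in Cabozantinib tumours 1 to 5. The groups did not overlap, and the Cabozantinib tumours were spread over nearly 3 log2 units, with tumours 3 and 4 highest. The difference was 4.11 ± 0.80 (SE; adjusted p = 0.0733); the probe set is of a type that Affymetrix marks as open to cross-hybridisation, and with the mean of the gene's 3 probe sets the difference was 1.63. Jchain, the chain that joins secreted IgA and IgM into polymers, read 10.76, 11.86, 10.76 and 12.32 against 5.43, 5.06, 8.21, 10.20 and 7.36. All 4 Combination values were the higher ones, with Cabozantinib 4 close below them, and the difference was 4.17 ± 1.21 (SE; adjusted p = 0.0885).

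The lambda segment Iglv1 had a difference of 4.50 ± 1.17 (SE; adjusted p = 0.0767), but only 2 of the 4 Combination tumours were above every Cabozantinib tumour, since Cabozantinib 4 read 9.96. Pou2af1, a coactivator that works with octamer-binding factors at immunoglobulin genes, read 5.85, 7.24, 5.44 and 8.02 in Combination and 4.05, 4.12, 4.19, 4.80 and 4.04 in Cabozantinib tumours. The groups did not overlap, the Cabozantinib mean was at background, and the difference was 2.40 ± 0.53 (SE; adjusted p = 0.0743). Ms4a1, which encodes the B cell surface protein CD20, differed by 1.67 ± 0.46 (SE; adjusted p = 0.0806) from a Cabozantinib mean of 4.23, at background, so the size depends on the background there. Cd22, an inhibitory co-receptor of B cells, differed by 1.70 ± 0.46 (SE; adjusted p = 0.0793). Combination 2 and Combination 4 were highest for Pou2af1, Ms4a1 and Jchain. In each treatment group the tumour with the highest skeletal muscle score also had the highest B cell and plasma cell score. These were Placebo 3, AntiPD1 2, Cabozantinib 4 and Combination 4. Without the 3 tumours high in muscle genes the list median was 0.55. The part of muscle tissue in these differences was not tested. Not every B lineage gene differed in this way. Pax5, the factor that holds B cell identity, had a difference of -0.02, Cr2, which encodes complement receptor 2, 0.02, both with signals at background, and Xbp1, a factor that plasma cells need and many other cells express, -0.13.

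A ligand and a receptor that act on B cells stood beside them. Tnfsf13 encodes APRIL, a cytokine of the TNF family that sustains plasma cells and is made largely by myeloid cells. It read 7.77, 8.39, 7.86 and 7.70 in Combination tumours 1 to 4 and 6.74, 6.68, 7.26, 6.94 and 6.62 in Cabozantinib tumours 1 to 5. The groups did not overlap, and the lowest Combination tumour was above the highest Cabozantinib tumour, number 3. The difference was 1.08 ± 0.16 (SE), a 2.12-fold higher signal, and it missed the threshold at adjusted p = 0.0520. It passed in 10 of 26 alternative settings, with adjusted p between 0.00962 and 0.224. Without cabozantinib the difference for Tnfsf13 was 0.54 ± 0.18 (SE; adjusted p = 0.161). Tnfrsf13b encodes TACI, a receptor for APRIL and BAFF, and differed by 1.37 ± 0.27 (SE; adjusted p = 0.0733), with Combination values of 6.09, 6.74, 5.97 and 6.42 and Cabozantinib values of 4.68, 4.55, 5.42, 5.44 and 4.58. Tnfrsf17, which encodes the plasma cell receptor BCMA for the same ligands, read 4.23 to 5.33 in Combination and 4.06 to 4.22 in Cabozantinib tumours, a difference of 0.53 ± 0.17 (SE; adjusted p = 0.101) near background. Tnfrsf13c, the receptor for BAFF alone, differed by 0.35, at background.

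In a bulk tumour, more cells of a type and more RNA per cell cannot be told apart, and this holds for each of the lists here.

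Monocyte and macrophage genes were the list with the highest median. All 18 measured members had a positive difference, the median was 1.24, and in 9 of the 18 the groups did not overlap, where 2.05% of all genes did so; no member passed the threshold. Adgre1, which encodes an adhesion receptor that marks mouse macrophages, read 9.99, 10.65, 10.26 and 10.12 in Combination tumours and 7.58, 6.52, 9.86, 8.88 and 8.44 in Cabozantinib tumours 1 to 5. The Combination tumours lay within 0.67 log2 units of each other, whereas the Cabozantinib tumours ranged over more than 3, with number 3 almost at the level of the Combination group. The difference was 2.00 ± 0.50 (SE), a 3.99-fold higher signal (adjusted p = 0.0763). Csf1r, the receptor for the growth factor that macrophages depend on, differed by 1.42 ± 0.43 (SE; adjusted p = 0.0925), and Fcgr1, a high-affinity receptor for IgG, by 1.69 ± 0.50 (SE; adjusted p = 0.0908).

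The 3 genes for the chains of C1q, the recognition subunit of the classical complement pathway and a product of tissue macrophages, had similar differences. C1qb read 11.64, 12.23, 11.86 and 11.77 in Combination and 10.33, 8.84, 11.62, 10.97 and 10.79 in Cabozantinib tumours, and its difference was 1.36 ± 0.41 (SE; adjusted p = 0.0911). For C1qa and C1qc the differences were 1.20 ± 0.35 and 1.34 ± 0.40 (SE), and Cabozantinib 2 was lowest and Cabozantinib 3 highest of its group for all 3. C1qb and C1qc lie close together on chromosome 4, and C1q genes have been tied to the myeloid factor PU.1, whose binding sites hold the core GAGGAA. The promoters of 3 list members whose groups did not overlap are shown because this core occurs in each of them; sequence and positions are those of RefSeq on GRCm38.p6, from 250 bases before to 50 after the start of the gene, 5′ to 3′ on the strand of the gene, with GAGGAA or its reverse complement TTCCTC in capitals.
Fcgr1 (chr3:96293920-96294219, minus strand): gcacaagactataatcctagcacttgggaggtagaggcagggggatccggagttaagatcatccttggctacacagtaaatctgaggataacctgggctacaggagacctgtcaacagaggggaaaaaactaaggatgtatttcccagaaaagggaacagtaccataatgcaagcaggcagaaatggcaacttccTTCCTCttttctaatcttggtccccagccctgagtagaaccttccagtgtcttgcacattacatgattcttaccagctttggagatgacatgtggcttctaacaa
C1qb (chr4:136886151-136886450, minus strand): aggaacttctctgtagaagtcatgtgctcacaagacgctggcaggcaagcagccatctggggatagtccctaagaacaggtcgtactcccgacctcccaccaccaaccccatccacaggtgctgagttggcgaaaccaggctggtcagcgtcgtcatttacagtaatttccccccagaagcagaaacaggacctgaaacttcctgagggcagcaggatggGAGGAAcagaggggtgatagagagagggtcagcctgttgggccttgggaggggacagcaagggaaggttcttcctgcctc
C1qc (chr4:136892865-136893164, minus strand): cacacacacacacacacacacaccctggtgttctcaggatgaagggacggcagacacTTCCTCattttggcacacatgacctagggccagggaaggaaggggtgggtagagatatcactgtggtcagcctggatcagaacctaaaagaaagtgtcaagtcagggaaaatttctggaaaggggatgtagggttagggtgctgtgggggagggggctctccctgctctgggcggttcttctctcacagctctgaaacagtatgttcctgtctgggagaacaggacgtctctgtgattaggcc
A promoter was listed for 13 of the 18 macrophage genes, and 9 of these 13 held the core on either strand. All 5 of the listed promoters of macrophage genes without overlap held it, a set picked by its values in this comparison. Among all 27025 promoters of the same length the share was 28.3%, and of 13 promoters listed for B cell and plasma cell genes 4 held the core. The octamer ATGCAAAT or its complement ATTTGCAT, a motif of immunoglobulin promoters, was in 1.75% of all promoters and in none of the 13 promoters listed for B cell and plasma cell genes; the segments Igkv14-111, Igk-V21 and Iglv1 were not among them. Both motifs were chosen after the results were seen, and a match is a description of letters only.

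Genes of alternatively activated and lipid-handling macrophages had a median difference of 0.64, with 18 of 19 positive and 3 without overlap. Folr2, a folate receptor of resident macrophages, read 8.97, 9.56, 9.35 and 8.36 in Combination and 7.34, 4.96, 8.33, 7.12 and 6.49 in Cabozantinib tumours. The lowest Combination value was only just above the highest Cabozantinib value, and the difference was 2.21 ± 0.56 (SE; adjusted p = 0.0763). Trem2, a lipid-sensing receptor of macrophages, differed by 2.17 ± 0.64 (SE; adjusted p = 0.0890), and its groups overlapped because Cabozantinib 3 read 8.93. Retnla, a secreted product of macrophages under interleukin 4, differed by 1.80 ± 0.58 (SE; adjusted p = 0.101), while Arg1 differed by 0.63 and Apoe by 0.10.

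Receptors for complement fragments had large differences within the complement and coagulation list, whose median was 0.30 with 13 of 16 members positive and 2 without overlap. The median was 0.15 without Cabozantinib 2 and Combination 1 and 0.99 over members with a mean above the highest array median. C5ar1, the receptor for C5a on myeloid cells, read 8.19, 8.99, 8.15 and 7.73 against 6.17, 5.12, 7.22, 7.29 and 6.33, a difference of 1.84 ± 0.41 (SE; adjusted p = 0.0745). C6, a component of the membrane attack complex, read 5.93, 6.74, 6.28 and 5.97 against 5.29, 4.99, 4.91, 5.86 and 4.98, a difference of 1.02 ± 0.21 (SE; adjusted p = 0.0733). Without cabozantinib C6 differed by 0.06 between AntiPD1 and Placebo, and the test of the gap between these 2 differences gave an unadjusted p of 0.00853 and an adjusted p of 0.9997. F2, which encodes prothrombin, a product of hepatocytes, had a difference of -0.83 (adjusted p = 0.373).

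T cell genes had smaller differences, and their groups overlapped. All 15 measured T cell genes had a positive difference, with a median of 0.50 and none without overlap. That median was 0.22 without Cabozantinib 2 and Combination 1, the pair highest in adipocyte genes, and 0.92 without the 3 tumours high in muscle genes. Cd8a, a chain of the co-receptor of cytotoxic T cells, read 9.13, 8.87, 8.81 and 8.43 in Combination and 7.86, 7.43, 8.72, 9.07 and 8.58 in Cabozantinib tumours, and Cd3e, a chain of the T cell receptor complex, 8.35, 7.98, 7.89 and 7.59 against 6.69, 7.10, 7.93, 8.02 and 7.67. Cabozantinib 1 and 2 were low for both genes, and the other Cabozantinib tumours lay among the Combination tumours. The differences were 0.48 ± 0.28 (SE; adjusted p = 0.338) for Cd8a and 0.47 ± 0.26 (SE; adjusted p = 0.309) for Cd3e. Cd4 differed by 0.29 and Bcl11b, a factor of T cell identity, by 0.91 (adjusted p = 0.124). Among 19 genes of cytotoxic lymphocytes and NK cells all were positive with a median of 0.48 and none was without overlap, and the median was 0.20 and 0.95 in the same 2 settings. Gzmk, a granzyme of memory T cells, differed by 0.87 ± 0.28 (SE; adjusted p = 0.1005), Ifng by 0.76, the pore-forming protein gene Prf1 by 0.32 and granzyme B (Gzmb) by 0.14 ± 0.45 (SE; adjusted p = 0.883). Gzmb was at 11.15 in Combination 1 and 8.83 in Combination 4, the highest and the lowest of the 9 tumours.

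The target of the antibody was measured through its transcript. Pdcd1, which encodes PD-1, read 8.27, 7.49, 7.12 and 7.16 in Combination and 6.42, 5.84, 7.44, 7.72 and 7.41 in Cabozantinib tumours, a difference of 0.55 ± 0.35 (SE; adjusted p = 0.378) between groups that overlapped. J43 binds the protein, so the transcript does not show whether the antibody acted. Cd274, which encodes PD-L1, differed by 0.17 ± 0.21 and Pdcd1lg2, which encodes PD-L2, by 0.56 ± 0.24 (SE; adjusted p = 0.689 and 0.192). Of the 18 genes listed for PD-1 signalling 16 were positive, with a median of 0.55, or 0.34 without Cabozantinib 2 and Combination 1, and 2 without overlap. Cd86, a CD28 ligand on antigen-presenting cells, read 8.56, 8.66, 8.08 and 7.94 against 6.62, 5.32, 7.67, 7.14 and 7.34, a difference of 1.49 ± 0.40 (SE; adjusted p = 0.0793). Ptpn6, which encodes the phosphatase SHP-1 and is expressed across blood cells, differed by 0.76, and Ptpn11, which encodes SHP-2, the phosphatase that PD-1 recruits, by -0.10.

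Of 20 activation and checkpoint receptors 17 were positive with a median of 0.44 and none was without overlap, and without Cabozantinib 2 and Combination 1 the median was 0.11. Vsir, which encodes the checkpoint VISTA found on myeloid cells, had the widest difference, 1.41 ± 0.43 (SE; adjusted p = 0.0911). Ctla4, Havcr2 (TIM-3) and Lag3, checkpoint receptors of T cells, differed by 0.74, 0.69 and 0.44, with adjusted p of 0.362, 0.315 and 0.391. Foxp3, the factor of regulatory T cells, was close to background in all 9 tumours, between 4.40 and 5.23. Interferon gamma response genes were positive in 20 of 21 cases with a median of 0.22, or 0.10 without Cabozantinib 2. Within that list Ciita, the master regulator of class II genes, had the widest difference at 1.15, and Cd74 and H2-DMa of the class II pathway were at 0.56 and 1.07, while the T cell attractants Cxcl9 and Cxcl10 differed by 0.29 and 0.10.

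**Figure D2:**
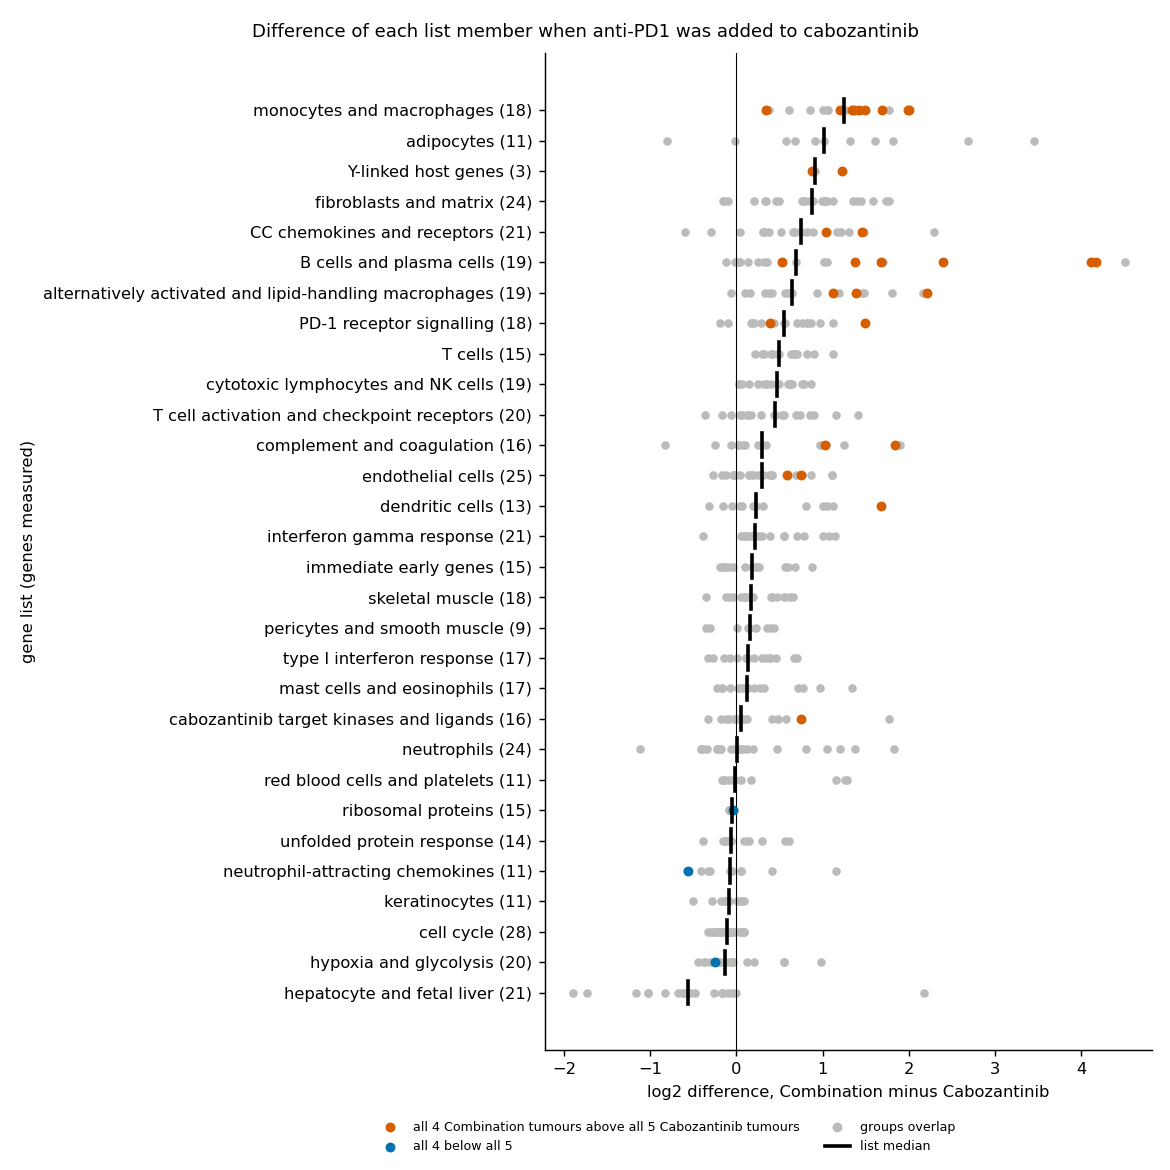
Log2 difference, Combination minus Cabozantinib (horizontal axis), of every measured member of 30 gene lists (vertical axis, number of genes measured in parentheses); orange points are genes with all 4 Combination tumours above all 5 Cabozantinib tumours, blue points genes with all 4 below, grey points genes whose groups overlap, and black bars the list medians. Medians run from -0.56 for hepatocyte and fetal liver genes to 1.24 for monocyte and macrophage genes.

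Neutrophil genes, which the title of the study names, had a median difference close to 0. Of 24 measured members 13 were positive, the median difference was 0.01, and none was without overlap. S100a8, a subunit of calprotectin, the main cytosolic protein of neutrophils, read 10.33, 9.66, 9.53 and 8.62 in Combination and 9.66, 9.42, 8.79, 11.51 and 9.23 in Cabozantinib tumours. Cabozantinib 4 was the highest of the 9, Combination 4 the lowest, and the others lay between. The differences were -0.19 ± 0.52 for S100a8 and -0.34 ± 0.56 (SE) for its partner S100a9, with adjusted p of 0.867 and 0.760. Without cabozantinib S100a8 differed by 1.66 between AntiPD1 and Placebo, and the unadjusted p of the gap between the 2 settings was 0.0341 for S100a8 and 0.0351 for S100a9 (adjusted p = 0.9997 for both). The neutrophil attractant Cxcl2 differed by 0.06, with Cabozantinib 4 at 11.49 and the others between 8.81 and 10.44. Csf3r, the receptor for G-CSF, differed by 0.81 ± 0.27 (SE; adjusted p = 0.107), and Csf3, which encodes G-CSF, was lower in all 4 Combination tumours, at 3.86 to 4.11 against 4.16 to 5.46, but near background in most. Without Cabozantinib 4, Combination 4 and the AntiPD1 tumour high in muscle genes, the list median was 0.27 and 2 of its genes passed the threshold as higher, and without Cabozantinib 2 and Combination 1 it was -0.10.

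Genes of fibroblasts and matrix had a median difference of 0.87, with 21 of 24 positive and none without overlap, and without Cabozantinib 2 the median was 0.56. Col1a1, the main chain of collagen I, read 9.76, 10.51, 10.02 and 9.88 in Combination and 7.79, 6.75, 10.35, 9.84 and 8.47 in Cabozantinib tumours. Cabozantinib 1, 2 and 5 were lower than all Combination tumours and Cabozantinib 3 and 4 lay among them, and the difference was 1.40 ± 0.58 (SE; adjusted p = 0.170). CC chemokine genes and receptors had a median of 0.75 with 19 of 21 positive, or 0.43 without Cabozantinib 2 and Combination 1. Ccl19, an attractant of lymphocytes and dendritic cells, and Ccl12, an attractant of monocytes, were without overlap at 1.46 ± 0.52 and 1.04 ± 0.31 (SE; adjusted p = 0.123 and 0.0890). Cxcl13, an attractant of B cells, read 6.07, 7.43, 5.78 and 8.48 against 7.15, 4.29, 6.88, 6.40 and 4.15, and its groups overlapped.

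The 25 measured endothelial genes had a median difference of 0.29, with 19 positive and 2 without overlap, whereas between AntiPD1 and Placebo 24 were positive with a median of 0.88, where 43.2% of all genes were positive. The endothelial score was -0.34 to -0.19 in the Combination tumours and -0.76 to -0.23 in the Cabozantinib tumours, below the AntiPD1 range of 0.75 to 1.57. Esm1, a gene of VEGF-stimulated tip cells, had means of 4.81 in Combination and 4.66 in Cabozantinib tumours, both at background, against 6.73 in Placebo and 8.26 in AntiPD1 tumours. Its difference was 0.15 ± 0.21 with cabozantinib and 1.53 without, and the gap of -1.38 between them had an unadjusted p of 0.000610 (adjusted p = 0.9997). Kdr, which encodes the cabozantinib target VEGFR2, differed by -0.03 ± 0.30 (SE) with group means close to background, and Vwf, the clotting factor stored by endothelium, by 1.10 ± 0.29 (SE; adjusted p = 0.0780). Of the 16 listed target kinases and ligands 9 were positive and 7 negative, with a median of 0.06 and 1 without overlap. Among them Mertk, a receptor that macrophages use to clear dying cells, differed by 1.77, Tek, the endothelial angiopoietin receptor, by 0.75 without overlap but with both means at background, and Kitl, the ligand of KIT, by -0.33.

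Genes of the tumour cells' own lineage were lower in most cases. Hepatocyte and fetal liver genes were negative in 20 of 21 cases, with a median of -0.56, 12 of them at an unadjusted p under 0.05 (12.6% of all genes), and none passed the threshold. Fgb, a chain of fibrinogen, read 10.23, 10.27, 10.71 and 10.79 in Combination and 11.43, 11.77, 10.71, 11.45 and 11.27 in Cabozantinib tumours. Cabozantinib 3 was as low as the Combination tumours, the other 4 were higher, and the difference was -0.83 ± 0.24 (SE; adjusted p = 0.0876). Foxa3, a liver transcription factor, differed by -0.56 ± 0.18 (SE; adjusted p = 0.103) and Alb, the most familiar liver product, by -0.16 ± 0.06 (SE; adjusted p = 0.120). Serpina1a, which encodes alpha-1-antitrypsin, was at 4.55 to 4.67 in Combination 1 to 3 and at 7.09 in Combination 4, against 5.31 to 8.24 in the Cabozantinib tumours. The exception was Cyp2e1 at 2.17 ± 0.99 (SE; adjusted p = 0.210), a gene that read highest in Combination 1, Combination 2 and Cabozantinib 2, the 3 tumours highest in adipocyte genes. Cell cycle genes were negative in 23 of 28 cases with a median of -0.11, which was -0.04 without Combination 2, -0.05 without Combination 4, -0.06 without Cabozantinib 5 and -0.20 without Combination 1. Hypoxia and glycolysis genes were negative in 15 of 20 cases with a median of -0.13, or -0.08 without Cabozantinib 1, and ribosomal protein genes in 15 of 15 with -0.06. Mki67, a marker of dividing cells, differed by -0.15 ± 0.11 (SE; adjusted p = 0.475).

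Y-linked transcripts differed in the same direction. The 3 measured Y-linked genes, which the male hosts carry, had differences of 0.88 to 1.22, and 2 of them, Kdm5d and Eif2s3y, were without overlap. Eif2s3y read 8.43, 8.79, 8.11 and 8.29 in Combination and 6.55, 6.40, 7.90, 8.03 and 7.03 in Cabozantinib tumours. The Y-linked score put the Cabozantinib tumours in the same order as the macrophage score, with number 2 lowest at -1.02 and -1.86 and number 3 highest at 0.15 and 0.27. Combination tumours had Y-linked scores of 0.25 to 1.003 and macrophage scores of 0.33 to 0.98. Labels do not say whether Hepa1-6 cells carry these genes, and the part of these transcripts' spread in the other differences was not tested.

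**Figure D3:**
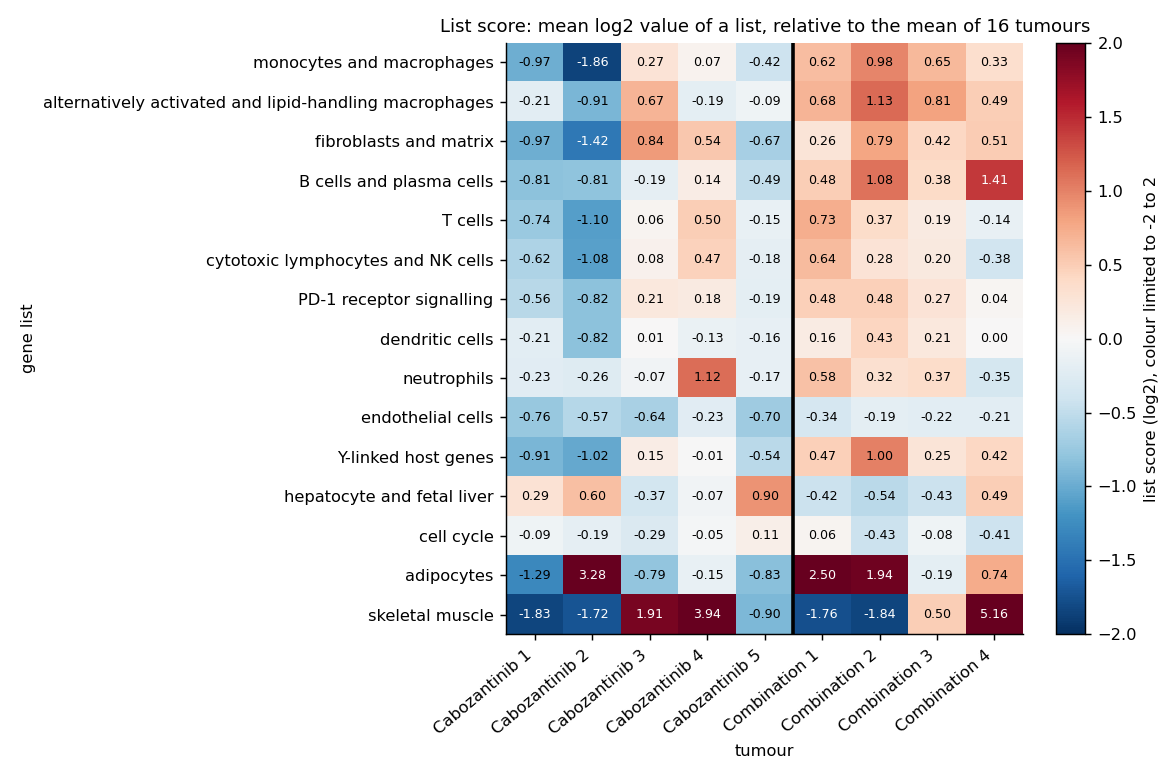
Score of 15 gene lists (rows) in the 5 Cabozantinib and 4 Combination tumours (columns); a score is the mean log2 value of the list's genes relative to their mean over 16 tumours, printed in each cell and shown by colour. Cabozantinib 1, 2 and 5 are low for macrophage, fibroblast, B cell and Y-linked genes, Cabozantinib 3 and 4 have fibroblast scores of 0.84 and 0.54, within or above the Combination range, and macrophage scores of 0.27 and 0.07, just below it, and muscle genes are high in Cabozantinib 4 and Combination 4.

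Outside the lists, the strongest differences at higher signal included Ptger4, which encodes the prostaglandin E2 receptor EP4 of myeloid and lymphoid cells. It read 7.95, 8.26, 7.98 and 7.91 in Combination and 5.47, 5.098, 6.88, 7.10 and 6.07 in Cabozantinib tumours. The Combination tumours lay within 0.35 of each other and above every Cabozantinib tumour, and the difference was 1.90 ± 0.34 (SE), 3.74-fold, with an adjusted p of 0.0733. Slc9a9, a sodium-proton exchanger of endosomes, differed by 1.67 ± 0.29, Fgd2, an exchange factor for Cdc42 in antigen-presenting cells, by 1.23 ± 0.23, Adap2 by 1.16 ± 0.21, the unnamed transcript BC064078 by 0.77 ± 0.14 and Ppp1r13b, which encodes the p53-binding protein ASPP1, by 0.52 ± 0.09 (SE; adjusted p = 0.0733 for each). In all of these the groups did not overlap.

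On the lower side the 8 strongest genes had an adjusted p of 0.0733 and did not overlap between groups. Il23a encodes the p19 subunit of interleukin 23, a cytokine that sustains cells making interleukin 17. It read 5.78, 5.60, 5.54 and 5.71 in Combination and 6.86, 7.01, 6.13, 6.68 and 6.16 in Cabozantinib tumours. The highest Combination tumour was below the lowest Cabozantinib tumour, and the difference was -0.91 ± 0.16 (SE). Between AntiPD1 and Placebo the difference for Il23a was -0.57 (adjusted p = 0.158). Pan2, a subunit of a deadenylase that trims messenger RNA tails, differed by -0.50 ± 0.09 (SE), with 8.08 to 8.43 in Combination and 8.49 to 8.80 in Cabozantinib tumours. Pan2 and Il23a are neighbours on chromosome 10 in RefSeq on GRCm38.p6, with 1 small nuclear RNA gene between them, and the array labels give no strand with which to separate signal of neighbouring genes. The other 6 were Aplp1, a relative of the amyloid precursor protein (-0.76 ± 0.14), Cgnl1, a protein of epithelial junctions (-0.76 ± 0.14), Ly6g2 (-0.58 ± 0.11), the transcription factor Rfx3 of cilia genes (-0.50 ± 0.09), the chromatin remodeller Chd6 (-0.48 ± 0.09) and Ccdc84 (-0.40 ± 0.07, SE).

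What the antibody added was then set beside its difference without cabozantinib, AntiPD1 minus Placebo. That difference shares no tumour with the comparison of Combination and Cabozantinib but is fitted with the same pooled spread. The controls were unlike: Placebo mice had received hamster IgG, which the labels do not name for Cabozantinib mice. In a gap between the 2 differences, cabozantinib and the hamster protein therefore cannot be told apart. Across 17097 genes the 2 differences correlated with Pearson r = 0.803 and Spearman rho = 0.709, a description over genes that are not independent replicates and that share the host cell content of each tumour. Of the 3853 genes at an unadjusted p under 0.05 with cabozantinib, 94.0% had the same sign without it, against 74.1% of all genes. AntiPD1 against Placebo called 5 genes (0.0292%). The test of the difference between the 2 settings called no gene (0%), with 440 genes at an unadjusted p under 0.05 (2.57%, fewer than the 855 expected on average with no difference) and every adjusted p at 0.9997. List medians with and without cabozantinib were 1.24 and 1.03 for monocytes and macrophages, 0.69 and 0.50 for B cells and plasma cells, 0.50 and 0.68 for T cells, and 0.87 and 1.17 for fibroblasts. They stood furthest apart for muscle genes, 0.17 and 1.33, which single tumours decide. Next came adipocytes (1.02 and 0.21), type I interferon response genes (0.14 and 0.79), endothelial genes (0.29 and 0.88) and neutrophil genes (0.01 and 0.39). None of these gaps between medians was tested. For B cells and plasma cells the mean scores stood further apart than the medians. They were 0.84 in Combination and -0.43 in Cabozantinib, against 0.08 in AntiPD1 and -0.36 in Placebo tumours. Jchain of that list had a gap of 3.43 ± 1.84 (SE; unadjusted p = 0.0826) between the 2 differences.

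For type I interferon response genes the 4 Combination scores were -0.28 to -0.03 and the 5 Cabozantinib scores -0.76 to 0.05, so the groups overlapped, and the median difference of 0.14 was 0.26 without Combination 4, 0.25 without Cabozantinib 5, 0.23 without Cabozantinib 3, 0.02 without Cabozantinib 2 and -0.03 without Cabozantinib 2 and Combination 1, whereas the AntiPD1 tumours were at 0.49 to 0.95. Mx2, an antiviral GTPase of this list, differed by -0.27 with cabozantinib and 0.42 without, and the gap of -0.70 had an unadjusted p of 0.00101. Igkv14-111 had the strongest gap in the upward direction at 2.38 ± 0.51 (SE; unadjusted p = 0.000306), since it differed by 0.37 without cabozantinib, where the AntiPD1 mean combines 1 tumour above background with 2 below it, and Igk-V21 had a gap of 3.39 ± 1.21 (SE; unadjusted p = 0.0136). In the downward direction the strongest were Mirg, a transcript that hosts microRNAs, at -0.58, the growth factor gene Ptn at -2.16, the prion-like gene Prnd at -1.83, Esm1 and the granule protein gene Chga, all of them with means at background in both cabozantinib-treated groups. None of these gaps passed adjustment over all genes.

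**Figure D4:**
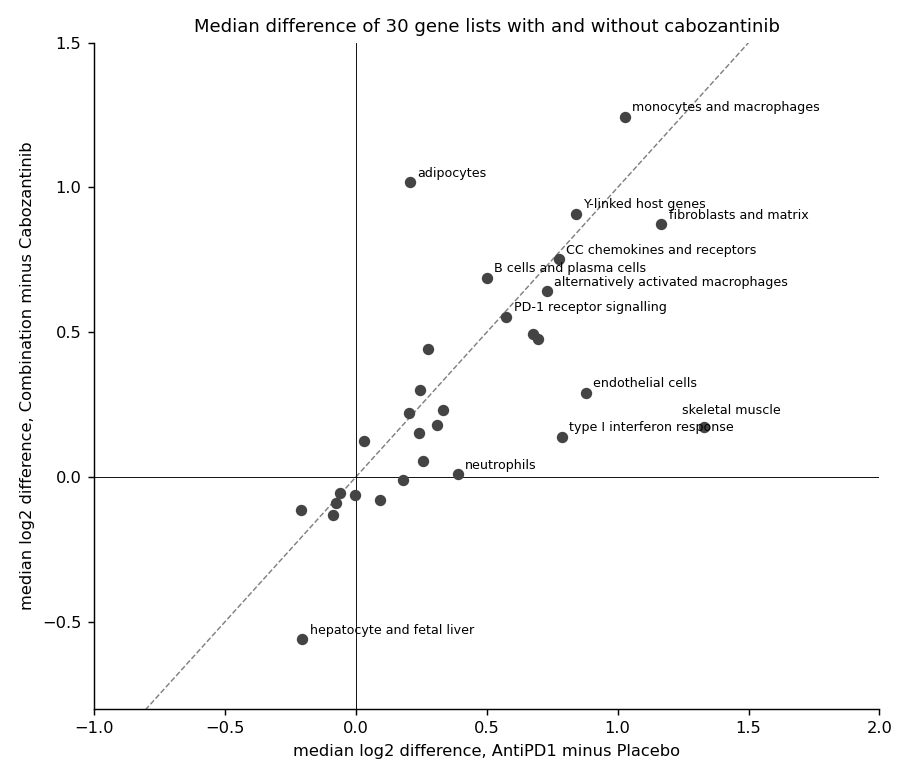
Median log2 difference of 30 gene lists when anti-PD1 was given with cabozantinib (vertical axis, Combination minus Cabozantinib) and without it (horizontal axis, AntiPD1 minus Placebo); each point is a list and the dashed line marks equal medians. By their medians, macrophage, B cell and PD-1 signalling lists lie near the line, endothelial, type I interferon and muscle lists below it, adipocytes above it and hepatocyte genes below 0 on both axes. Mean scores of the B cell list stood further apart than its medians.

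How many genes passed the threshold depended on single tumours, and Cabozantinib 3 carried the most weight. Without it 956 genes were higher (5.59%) and 999 lower (5.84%), the largest count of any setting. Cabozantinib 3 had the highest score of its group for macrophage, alternatively activated macrophage, fibroblast and Y-linked genes. Leaving it out therefore widened the differences of those lists, and their counts in this setting are no separate support. Of the 19 B cell and plasma cell genes 8 then passed as higher, as did 12 of 18 macrophage genes, 9 of 19 genes of alternatively activated macrophages, 9 of 24 fibroblast genes, 7 of 18 PD-1 signalling genes, 6 of 16 complement and coagulation genes and 4 of 25 endothelial genes. Also passing as higher were 5 of 21 interferon gamma response genes, 3 of 13 dendritic cell genes and all 3 Y-linked genes. No T cell, cytotoxic or neutrophil gene passed in that setting, while 5 of 21 hepatocyte genes and 1 endothelial gene passed as lower. Weighting arrays by their spread gave 720 genes higher (4.21%) and 721 lower (4.22%), of which 1281 were shared with the genes called without Cabozantinib 3 (88.9% of the first set and 65.5% of the second). With the weights 11 macrophage genes, 8 PD-1 signalling genes, 7 B cell and plasma cell genes, 3 endothelial genes and no fibroblast gene passed as higher. In that setting 1 T cell, 1 cytotoxic and 1 neutrophil gene also passed as higher, and 7 hepatocyte genes as lower. Without Combination 4 there were 45 genes higher (0.263%) and 65 lower (0.380%), and without Combination 3 there were 6 in all. Without the 3 tumours high in muscle genes, 21 were higher (0.123%) and 16 lower (0.0936%). No gene passed without Cabozantinib 1, 2 or 5 or without Combination 2, where 2345 to 3236 genes had an unadjusted p under 0.05. Within the 9 compared tumours, Cabozantinib 1, 2 and 5 had the lowest Y-linked, macrophage and fibroblast scores.

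**Figure D5:**
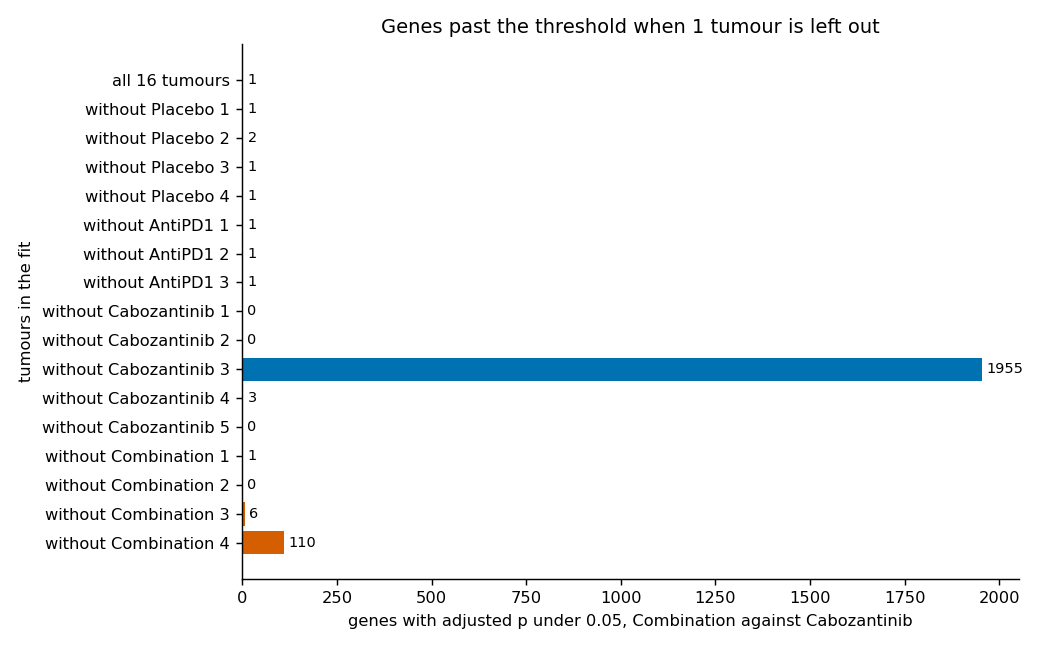
Number of genes with an adjusted p under 0.05 for Combination against Cabozantinib (horizontal axis) when all 16 tumours are in the fit and when each tumour in turn is left out (vertical axis). The count is 1 with all tumours, 1955 without Cabozantinib 3, 110 without Combination 4, and 0 to 6 in every other case.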

How the data were processed

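RNA of 16 tumours was hybridised to Affymetrix whole-genome mouse arrays (50 ng of total RNA each, per the labels' protocols). The deposited table holds log2 expression values for 45141 probe sets, which the authors made with RMA in affy 1.62.0, per the submitters' processing notes. No detection calls, scan dates or batches were used here. Precision is set by how many arrays each group has.

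Probe sets were named from the platform annotation: 28898 had 1 gene, 551 several and 15588 none, and 104 were controls. Where a gene had several probe sets (7180 of 17097 genes), the brightest on average across the 16 arrays represented it. Means of the 4 groups were fitted to all arrays with limma 3.58.1 (lmFit and eBayes, R 4.3.3; 12 residual degrees of freedom), with Benjamini-Hochberg adjustment over all genes. Tested on simulated data with these arrays' means and spread, the fit recovered 89.6% of 67 genes changed by 1 log2 unit and 46.3% of 67 changed by 0.5, with 8 false calls. The noise was drawn separately for each gene, and the changed genes all had a mean above the highest array median. Real genes share the host cell content of a tumour and vary together, so these rates do not carry over to the tumours.

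The comparison, the 30 gene lists and the naming rule were chosen with earlier results of these data known. The rule took genes past the threshold, or the 8 strongest in a direction where fewer than 5 passed, the 2 strongest members of each list, a panel of 33 genes (31 measured) and the 5 strongest gaps between settings in each direction; other list members were named after their values were seen. Replicate numbers follow the order of the samples and pair nothing. No 2 arrays were identical (highest correlation 0.994). Settings tried were the fit on the compared groups alone, other probe set rules, filters, scaling, array weights, prior variance, a random block and left-out tumours.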

Additional observations from a re-analysis of the deposited data

Results flagged for a closer look

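Values far from the rest of their group were looked for in 154 combinations of a group of 4 or 5 tumours with a named gene or a list score, by the gap to the nearest tumour over the group's range. Chance marks about 1 in 20 groups, and 10 were marked here. Cabozantinib 4 stood apart on the neutrophil side, with a neutrophil score of 1.12 (others -0.26 to -0.07), a score for neutrophil-attracting chemokines of 1.16 (others -0.33 to 0.09), Csf3r at 7.43 (others 6.09 to 6.45) and Cxcl2 at 11.49 (others 8.87 to 9.46). Cabozantinib 2 stood apart with an adipocyte score of 3.28 (others -1.29 to -0.15) and a dendritic cell score of -0.82 (others -0.21 to 0.01). Combination 4 stood apart with a hepatocyte score of 0.49 (others -0.54 to -0.42), a type I interferon score of -0.28 (others -0.07 to -0.03), Tnfrsf9, which encodes the costimulatory receptor 4-1BB, at 8.43 (others 9.36 to 9.55) and Chd6 at 7.11 (others 6.70 to 6.75). Of the 9 Cabozantinib and Combination tumours, Cabozantinib 4 and Combination 4 were also the highest in skeletal muscle genes.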

How the results depend on the processing

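The 1 gene called for Combination against Cabozantinib became 4 with the mean of all probe sets per gene, 2 with the filter on low signal (10141 genes), with median centring, with quantile normalization and with a trended robust prior, 1441 with array weights, 37 without the tumours high in muscle genes and 1161 at an adjusted p under 0.1, or 2 at that threshold with only the compared groups fitted, both added after the data were seen. It became 0 without Cabozantinib 2 and Combination 1, the 2 tumours highest in adipocyte genes (2629 genes at an unadjusted p under 0.05). Combination 2, also high in them, stayed in that fit. The adipocyte median there was 1.21, against 1.02 with all tumours, so the adipocyte difference was not removed. Leaving out 1 tumour gave 0 to 1955 genes: 1955 without Cabozantinib 3, 110 without Combination 4, 6 without Combination 3, 3 without Cabozantinib 4, 2 without Placebo 2, and 0 without Cabozantinib 1, 2 or 5 or Combination 2. For AntiPD1 against Placebo the 5 genes became 70 when only those groups were fitted, 8 with the probe set mean, 1 with the filter, 1822 with array weights, 1 with the random block, 1 without Cabozantinib 2 and Combination 1, 11 at an adjusted p under 0.1 (1673 with only those groups fitted), and 0 to 30 when 1 tumour was left out, with 30 without Cabozantinib 3, 21 without AntiPD1 3, 10 without Cabozantinib 2, and 0 to 3 in most others. The test of the gap between settings called 0 genes in all alternatives but 2, with 1 gene without AntiPD1 2 and 1 without AntiPD1 3 (range 0 to 1), and cannot be fitted on the compared groups alone. The cause of these moves was not tested, except that all groups share 1 estimate of the spread. Of 30 list medians 24 kept their sign in all 26 alternatives; the signs of the type I interferon, neutrophil, neutrophil-attracting chemokine, unfolded protein, muscle and red blood cell medians did not hold in all. No paired analysis was possible because the replicate numbers follow the order of the samples. There are 4 shared title numbers, with no stated meaning. Besides Cabozantinib 2 and 3, they are shared by Cabozantinib 5 and Combination 3, by Placebo 2 and AntiPD1 1, and by Placebo 4 and AntiPD1 3. Some thus span the groups compared. As a random block (consensus correlation -0.103) the title numbers left the count for Combination against Cabozantinib at 1.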
